A study of Mus musculus with 8 samples.

Results

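Cytosolic ribosomal protein genes encode the protein part of the ribosome, and 86 of the 24015 entries of the count table were taken as this set by their symbols. Every symbol that begins with Rpl or Rps and a digit, or with Rplp and a digit, was included. The 10 Rps6k kinase genes and 7 pseudogene symbols holding -ps were left out. The 86 comprised 52 genes of the large subunit (Rpl and Rplp), 33 of the small subunit (Rps), and Rps19bp1, which the symbol rule caught although it encodes a protein that binds Rps19 and is not part of the ribosome.

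A ribosome holds 1 copy of nearly every one of these proteins, so cells make them in matched amounts, and their mRNAs are among the most abundant of growing cells and developing neurons. Most of these mRNAs begin with a run of pyrimidines (the TOP motif), through which mTORC1 signalling adjusts their translation together. Because they are short and abundant in the germ line, many have been copied back into the genome as processed pseudogenes, intronless copies whose sequence is nearly that of the mRNA.

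RNA was sequenced from 8 C57BL/6N mice at postnatal day 7. All but the WT mice carried a deletion of 1b, a noncoding region of Scn1a that holds an alternative promoter. The deletion was made with Cas9 in oocytes and bred as a line. There were 2 WT mice (both male), 4 heterozygotes, 1b+/- (2 male and 2 female), and 2 homozygotes, 1b-/- (both female). The labels give the tissue as hippocampus and the study's methods as forebrain. Sex and genotype therefore cannot be told apart between WT and 1b-/-, and the deletion is 1 line.

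Libraries held 2947770 to 20878772 counts, the shallowest being 1b+/- replicate 4 and 1b-/- replicate 2 (3940859). Counts were divided by the library total, scaled with TMM factors, and are given as CPM. A gene was tested when any library reached 1 CPM, which left 15588 genes. Scn1a, the targeted gene, stood at 45.1 and 40.5 CPM in WT, 15.7 to 26.7 CPM in 1b+/-, and 3.18 and 2 CPM in 1b-/-, in the order of the labels. Forebrain genes were abundant in every library (Neurod6 915 to 2040 CPM) and Prox1, a dentate gyrus gene, was present at 11.6 to 30.8 CPM, whereas Spink8, another hippocampal marker, reached at most 0.505 CPM. En1 and En2, genes of the midbrain and hindbrain, stood at 10.3 and 15.6 CPM in 1b+/- replicate 1 and reached at most 1.51 and 2.52 CPM elsewhere. A list of 17 epithelial markers summed to 392 and 115 CPM in WT against 20.7 to 56.1 CPM in the other libraries.

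The ribosomal protein mRNAs did not appear in matched amounts. Per kilobase of exon, the mean level over the 8 libraries ran from 879 CPM for Rpl4 to 0 for Rpl26 and Rps27rt. Of the 86 genes, 70 passed the filter, 16 did not, and 69 had at least 1 count in every library. Their summed share of a library's counts was 0.409% to 0.54%, and Rpl4 alone held 99013 counts over the 8 libraries.

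The sequences help to read these levels, because a 50-base read, the length used here, from a stretch that is repeated elsewhere in the genome cannot be placed by its sequence alone. For 85 of the 86 genes (Rpl41 had no entry in the annotation used), every 50-base window of the coding sequence was searched for on both strands of the mouse genome (mm9), and windows found nowhere else were counted as unique. The next lines show 60 bases from the middle of the longest coding exon of 8 genes, in mRNA orientation, chosen because they span the range of levels. Capitals mark each base at which a unique 50-base window begins, and lower case marks a base at which the window has at least 1 further exact match.
Rpl4, chr9:64026110-64026169, plus strand, 879 CPM per kb: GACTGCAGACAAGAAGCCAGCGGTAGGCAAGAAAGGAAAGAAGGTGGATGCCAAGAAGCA
Rpl8, chr15:76735328-76735387, plus strand, 172 CPM per kb: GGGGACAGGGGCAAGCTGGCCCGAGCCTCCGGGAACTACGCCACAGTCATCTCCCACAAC
Rps3, chr7:106627856-106627915, minus strand, 145 CPM per kb: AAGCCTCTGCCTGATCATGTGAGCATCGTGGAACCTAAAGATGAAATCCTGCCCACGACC
Rplp1, chr9:61761202-61761261, minus strand, 203 CPM per kb: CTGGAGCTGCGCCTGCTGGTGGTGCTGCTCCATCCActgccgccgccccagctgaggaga
Rps6, chr4:86500705-86500764, minus strand, 44.2 CPM per kb: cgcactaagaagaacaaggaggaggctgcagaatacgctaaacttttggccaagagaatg
Rps13, chr7:123476498-123476557, minus strand, 0.525 CPM per kb: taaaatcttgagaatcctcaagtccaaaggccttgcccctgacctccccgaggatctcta
Rpl19, chr11:97889692-97889751, plus strand, 0.496 CPM per kb: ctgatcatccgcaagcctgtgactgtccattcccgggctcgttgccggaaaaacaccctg
Rpl26, chr11:68715831-68715890, plus strand, 0 CPM per kb: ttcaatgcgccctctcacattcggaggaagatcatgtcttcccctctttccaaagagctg
All 60 windows were unique in Rpl4, Rpl8 and Rps3 and 36 in Rplp1, and none in the other 4. In Rps13 each of the 60 windows had 5 further matches, in Rpl19 1 to 3, in Rpl26 3 to 6, and in Rps6 6 to 11. Other genes did not follow the order of these 8. The same stretch held no unique window in Rps26 (750 CPM per kb) and Rps24 (315 CPM per kb). It held 60 in Rpl3l (0.198 CPM per kb) and 32 in Rpl30 (0.0452 CPM per kb).

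Over whole coding sequences, 30 of the 85 genes (35.3%) had no unique 50-base window, against 73 of 13978 tested genes with an annotated coding sequence (0.522%). The 13978 had all passed the filter, as had 19 of the 30 and 69 of the 85. The median share of unique windows was 11.5% in the 85 genes, whether or not they passed, and 100% over the tested genes. Only 4 of the 85 were unique throughout, among them Rps19bp1, Rpl3l and Rpl39l. The most repeated window of the set had 45 further matches and lay in Rpl7a. Rpl21, Rps2 and Rpl29 also had windows with 44, 36 and 32 further matches.

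**Figure D1:**
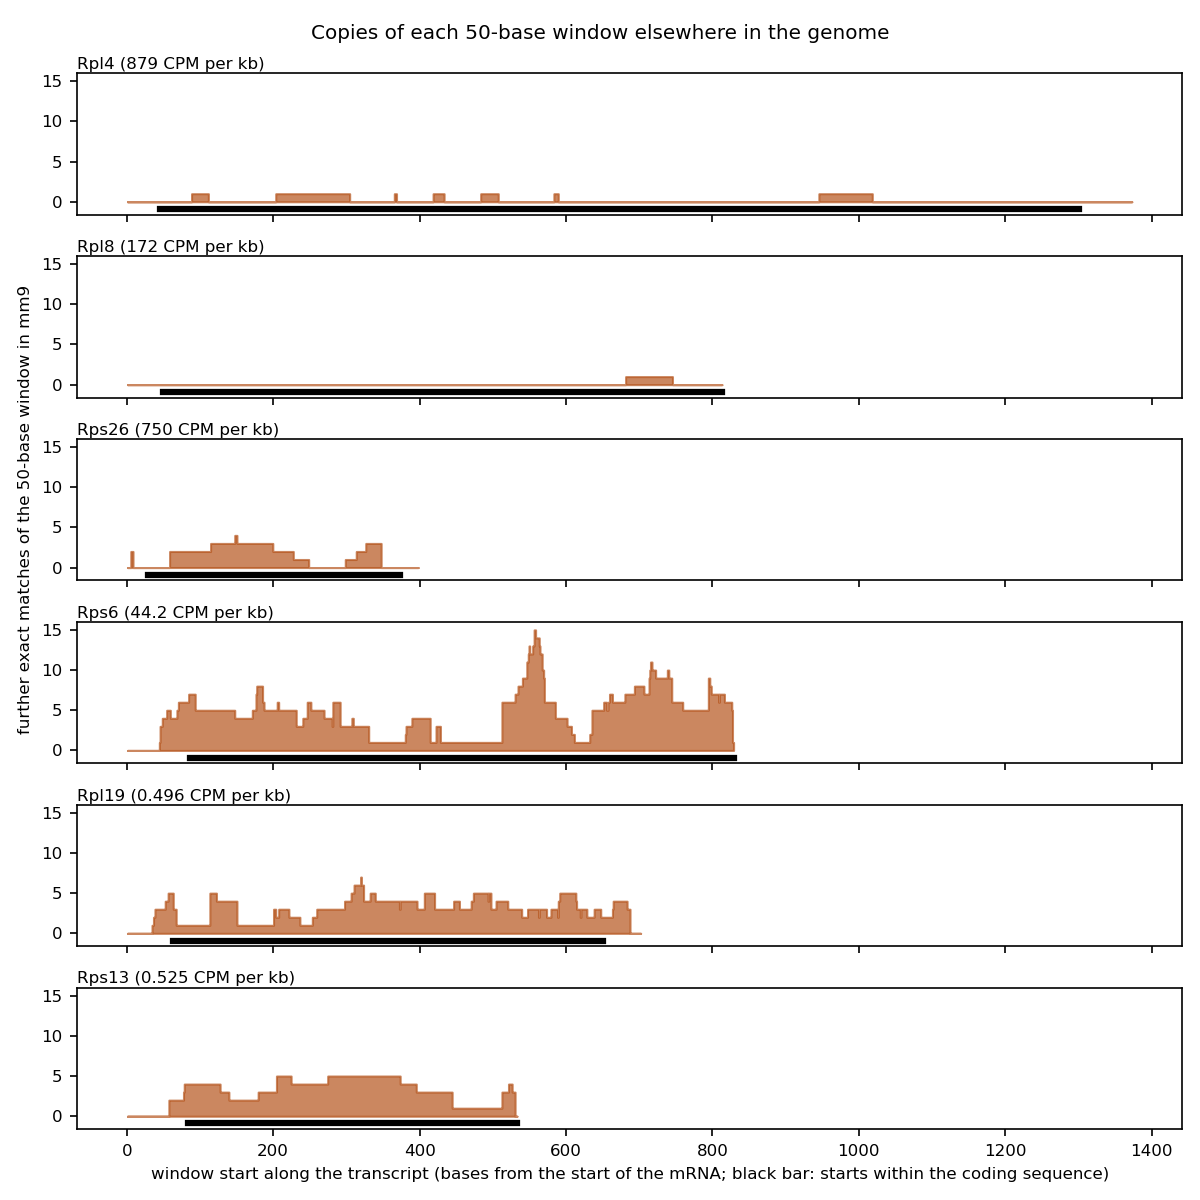
Number of further exact matches in mm9 (vertical axis) of the 50-base window that starts at each base of the mRNA (horizontal axis, bases from its start) for 6 genes, the black bar marking window starts within the coding sequence. Rpl4 and Rpl8 had at most 1 within the coding sequence, and Rps6 and Rpl19 had at least 1 at every start under the bar.

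Levels differed with this share. The 30 genes with no unique coding window had a median of 1.19 CPM per kb and none reached 50 CPM per kb, the highest being Rps6 and Rpl15 at 44.2 each. The 38 genes with a share above 0 and under 50% had a median of 10.6 CPM per kb, and 9 of them reached 50. The 17 genes with 50% or more had a median of 49.8 CPM per kb, and 8 reached 50. Across the 85 genes, which share libraries and depth, Spearman's correlation between the share of unique coding windows and the level per kb was 0.54. With the share over the whole mRNA, whose exons all enter the length, it was 0.39.

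Of the 17, the 5 below 15 CPM per kb were Rps19bp1, Rps4l and the paralogs Rpl3l, Rpl10l and Rpl39l. Rpl3l is known from striated muscle, Rpl10l and Rpl39l are known from testis, and Rps4l is a transcribed pseudogene in RefSeq. Over the same 85 genes, Spearman's correlation of the level was 0.08 with the GC content of the coding sequence and 0.17 with the exon length.

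**Figure D2:**
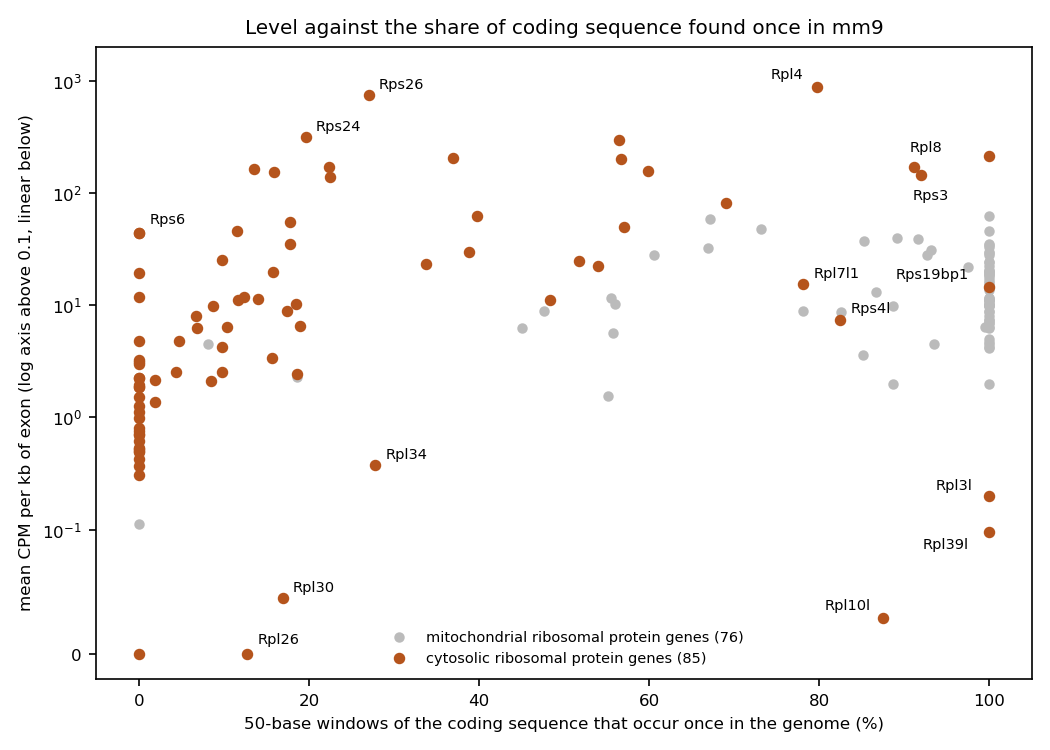
Mean CPM per kb of exon over the 8 libraries (vertical axis, logarithmic above 0.1) against the percentage of 50-base coding windows that occur once in mm9 (horizontal axis) for 85 cytosolic and 76 mitochondrial ribosomal protein genes. The cytosolic genes at 0% all lay at or below 44.2 CPM per kb, and Rpl26, Rpl30 and Rpl34 lay low although part of their sequence was unique.

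The mitochondrial ribosomal protein genes, which encode the separate ribosome of mitochondria, gave a comparison in the same libraries. Of 76 with an annotated coding sequence, 71 had a share of unique windows of 50% or more and 1, Mrpl23, had none. Their levels had an SD of 1.20 on the log2 scale (75 genes that passed the filter), against 2.77 for the 69 cytosolic genes that passed and had a length. Spearman's correlation between share and level was 0.14 across the 76. The 15 cytosolic genes that passed with a share of 50% or more, Rpl3l, Rps4l and Rps19bp1 among them, had an SD of 2.93. These 3 widened it, as the other 12 lay between 15.5 and 879 CPM per kb, with a median of 151. Dividing by kilobases of unique windows over the whole mRNA, in place of exon length, left the SD of the 69 cytosolic genes at 2.65. For the 15 this division gave 3.16. Some genes had very few such windows, such as Rps27 (0.338%) and Rps12 (1.92%). A small divisor can itself widen the spread, so this SD does not show how far shared reads entered it. How reads with several matches were counted was not given in the sources used here, so the part of shared reads in these levels was not tested.

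Rpl4, a large subunit protein that lines the tunnel through which the new chain leaves, was the highest per kb and by counts. It lies at chr9:64021194-64026369 on the plus strand, and 963 of its 1208 coding windows were unique. It stood at 1430 and 1279 CPM in WT, at 1054, 1258, 1265 and 1296 CPM in 1b+/- and at 1273 and 1145 CPM in 1b-/-. Both 1b-/- libraries were just below both WT libraries, and 1b+/- overlapped with WT.

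Next in level per kb came small subunit genes. Rps26, which lies where mRNA leaves the ribosome, was at 328 and 325 CPM in WT, at 386, 357, 332 and 330 CPM in 1b+/- and at 285 and 338 CPM in 1b-/-. Its level per kb was 750 CPM although only 27% of its coding windows were unique. Rps24 followed at 315 CPM per kb with 19.6% unique. It stood at 147 and 153 CPM in WT, at 139, 123, 136 and 170 CPM in 1b+/- and at 143 and 168 CPM in 1b-/-, and the 3 groups overlapped.

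The 5 lowest of the genes that passed the filter were Rpl3l (0.198 CPM per kb), Rpl5 (0.421), Rpl10a (0.716), Rpl9 (0.796) and Rpl23a (0.994). Apart from Rpl3l, none of these had a unique coding window. Over the whole mRNA, 51.3% of the windows of Rpl5 were unique, 14.7% of Rpl10a, 4.8% of Rpl9 and 5.48% of Rpl23a. Rpl5 and Rpl11 join the 5S ribosomal RNA in a particle that also binds the p53 regulator Mdm2. Rpl5 had 73 counts and a mean of 0.862 CPM, and Rpl11 had 186 counts and a mean of 2.5 CPM. Both lacked unique coding windows.

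The 16 genes that did not pass the filter held few reads. Rps29 had 33 counts over all 8 libraries, Rpl36a 21, Rps28 31, Rps16 28, Rps13 24, Rpl19 34, Rpl38 17, Rpl34 19, Rpl28 28 and Rps23 14. Each of these 10 except Rpl34 (27.8%) had no unique coding window. Rpl39l had 6 counts and Rpl10l 2. Rpl30 had 4 counts with 16.9% of its coding windows unique, and Rpl26 had 0 counts in every library with 12.7% unique. Rps27rt, a retrogene of Rps27, also had 0. A count of 0 allows up to 3 counts, or 0.145 to 1 CPM by library.

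**Figure D3:**
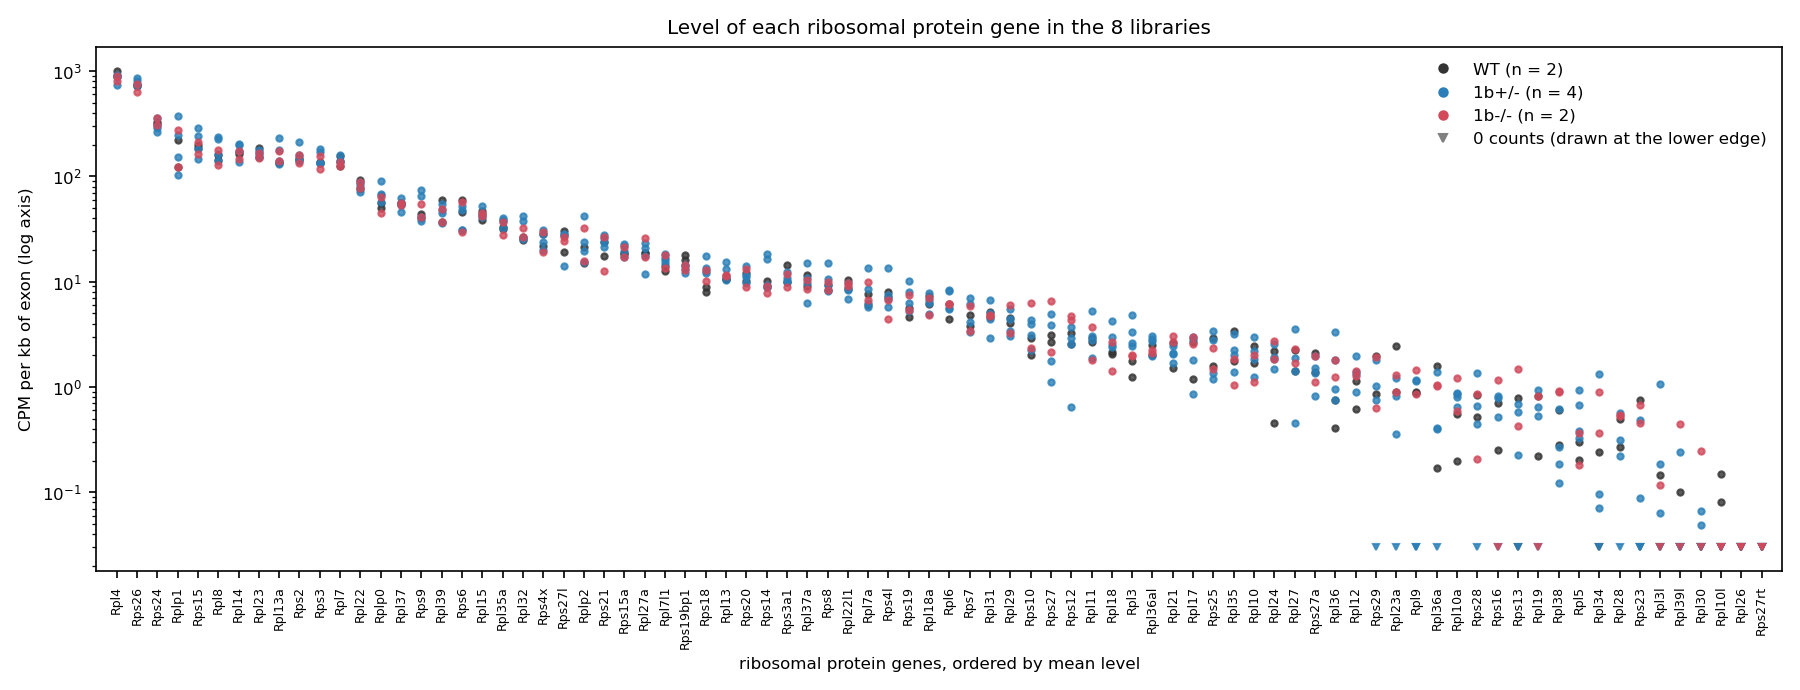
CPM per kb of exon (vertical axis, logarithmic) of 82 genes with a length, ordered by mean level, with 1 point per library coloured by genotype and triangles at the lower edge for 0 counts. Levels fell from 879 CPM per kb for Rpl4 to 0 for Rpl26 and Rps27rt, and the libraries of 1 gene lay much closer to each other than the genes did.

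Among paralogs, the level did not always follow the usual main copy. Rps27l was at 24.7 CPM per kb with 51.7% of its coding windows unique, and Rps27 at 3.27 CPM per kb with none. Rpl36al stood at 2.43 CPM per kb with 18.6% unique, and X-linked Rpl36a at 0.75 with none. Rpl7l1 was at 15.5 CPM per kb and Rpl7 at 140, and Rpl22l1 at 8.88 and Rpl22 at 82. Rpl10 and Rpl39, both on X, were at 1.94 and 45.8 CPM per kb, with Rpl10l and Rpl39l far below. Reads of paralogs can be split or lost between copies, so these differences in level are uncertain.

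The same contrast was seen in ribosomal protein genes with other names. Gnb2l1, which encodes the small subunit scaffold Rack1, had 98.6% unique coding windows and was at 147 CPM per kb. Rpsa (0.12% unique) was at 1.9 CPM per kb, and Fau, made as a fusion with a ubiquitin-like protein (no unique window), was at 0.759. Among the 7 pseudogene symbols left out of the set, Rpl14-ps1 held 294 to 1282 counts in every library, or 45.7 to 98.2 CPM, and Rpl14 held 127 to 191 CPM. The other 6 reached at most 2.12 CPM, and Rpl34-ps1 and Rplp2-ps1 had no count.

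Genes mutated in Diamond-Blackfan anaemia, a failure of red cell production, spanned the whole range. Of the 15 looked at, 11 passed the filter. Rps26, Rps24 and Rpl15 had means of 335, 147 and 98.2 CPM, Rps19, the gene most often mutated, had 6.12 CPM, and Rps28, Rps29 and Rpl26 were among those that did not pass.

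Loss of 1b was then compared with WT. No ribosomal protein gene passed an adjusted p of 0.05 in 1b+/- against WT (0 of 70, edgeR quasi-likelihood test, Benjamini-Hochberg over 15588 genes), where 0.0834% of all tested genes did. At an unadjusted p under 0.05 there were 2, against 4.34% of all genes. The likelihood ratio test of edgeR and DESeq2 also called 0 of 70, each with 2 at an unadjusted p under 0.05. The median log2 fold change over the 70 was 0.14, with 49 higher and 21 lower, and that of all genes was 0.01.

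The 2 were Rpl3, a large subunit protein near the site of peptide bond formation, and Rps18, a small subunit gene used as a reference in quantitative PCR. Rpl3 was at 2.4 and 1.69 CPM in WT, at 6.6, 3.53, 4.56 and 3.34 CPM in 1b+/- and at 2.69 and 2.75 CPM in 1b-/-. All 4 heterozygotes were above the other 4 libraries. Its log2 fold change against WT was 1.15 (SE 0.37, adjusted p = 1). Rps18 was at 5.37 and 4.75 CPM in WT, at 10.4, 7.17, 7.61 and 8.01 CPM in 1b+/- and at 6.12 and 7.76 CPM in 1b-/-. WT was lowest, and the log2 fold change of 1b+/- was 0.71 (SE 0.25, adjusted p = 1). Only 4.31% of the coding windows of Rpl3 and 12.3% of those of Rps18 were unique.

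In 8 of the 70 genes (11.4%) every 1b+/- library was above both WT libraries, against 6.4% of all tested genes. They were Rpl3, Rpl5, Rpl7l1, Rpl10a, Rpl18, Rplp0, Rps18 and Rps26. In 1 gene (1.43%), Rps19bp1, every 1b+/- library was below, against 5.93%. Rps19bp1 was at 14.8 and 13.3 CPM in WT and at 10.1 to 11.9 CPM in 1b+/-, with a log2 fold change of -0.33 (SE 0.18, adjusted p = 1).

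Among the genes with a mean of at least 10 CPM, the largest log2 fold changes of 1b+/- against WT were 0.47 (SE 0.32) for Rps14, 0.42 (SE 0.38) for Rplp2 and 0.41 (SE 0.20) for Rplp0. The lowest were -0.37 (SE 0.28) for Rps6, -0.33 for Rps19bp1 and -0.17 (SE 0.22) for Rps3a1. All had an adjusted p of 1 in the quasi-likelihood test, and the 34 genes of this abundance had a median SE of 0.20.

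In 1b-/- against WT, 0 of 70 passed the test, against 0.00642% of all genes, and 0 had an unadjusted p under 0.05, against 1.64%. The likelihood ratio test and DESeq2 gave the same counts of 0. The median log2 fold change was 0.03 (39 higher, 31 lower) beside -0.01 over all genes. The largest changes at a mean of at least 10 CPM were 0.39 (SE 0.44) for Rplp2, 0.22 (SE 0.20) for Rpl7l1 and 0.20 (SE 0.24) for Rpl13a, and -0.31 (SE 0.22) for Rps19bp1, -0.25 (SE 0.33) for Rps6 and -0.24 (SE 0.27) for Rps3a1. Both 1b-/- libraries were above both WT libraries in 9 genes (12.9%, all genes 11.6%) and below in 4 (5.71%, all genes 12%). The 4 were Rpl4, Rpl37, Rps4l and Rps19bp1.

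In 1b-/- against 1b+/-, again 0 of 70 passed in each of the 3 tests, against 0.00642% of all genes in the quasi-likelihood test, and 0 had an unadjusted p under 0.05, against 1.23%. The median was -0.10 (23 higher, 47 lower). It shares the heterozygotes with the first comparison. Rps14 (-0.64, SE 0.33), Rplp0 (-0.40, SE 0.20) and Rpl8 (-0.32, SE 0.22) had the lowest values, and Rpl27a (0.23, SE 0.26), Rps24 (0.14, SE 0.15) and Rps6 (0.12, SE 0.29) the highest. Every 1b-/- library was above every 1b+/- library for Rpl21 and Rps12 (2.86%, all genes 3.41%) and below for Rpl3 and Rpl7 (2.86%, all genes 3.98%).

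A slope over the number of deleted alleles called 0 of 70 (0.0385% of all genes), with 0 at an unadjusted p under 0.05 (1.73%) and a median of 0.02 per allele. Females and males within 1b+/- also differed in 0 of 70 (0.0321% of all genes), with 0 at an unadjusted p under 0.05 (2.66%) and a median of 0.03. Each of these counts was 0 with the likelihood ratio test and with DESeq2 as well. Over all genes, those called per allele by the quasi-likelihood test included 5 of the 17 epithelial markers, each lower with more deleted alleles.

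**Figure D4:**
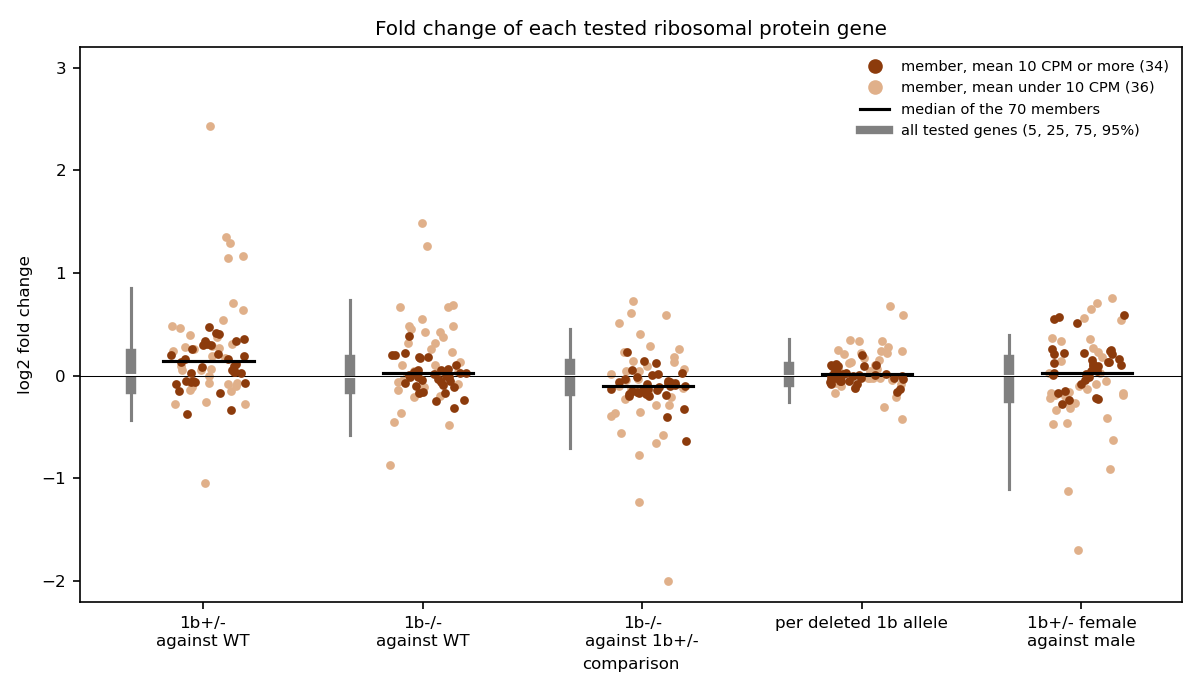
Log2 fold change (vertical axis) of each of the 70 tested ribosomal protein genes in 5 comparisons, dark points having a mean of at least 10 CPM, with the members' median as a black line and all 15588 tested genes in grey (thick bar 25th to 75th, thin line 5th to 95th percentile). The medians lay between -0.10 and 0.14, and the widest points were genes with few counts.

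What differed most was the single library. For the 34 genes with a mean of at least 10 CPM, log2(CPM + 0.5) was set against its mean over the 8 libraries. The median of these deviations was 0.21 in 1b+/- replicate 4, 0.12 in 1b+/- replicate 1 and 0.05 in 1b-/- replicate 2. It was -0.17 in 1b-/- replicate 1, -0.15 in 1b+/- replicate 2, -0.07 in both WT libraries and -0.01 in 1b+/- replicate 3. The 1b+/- libraries thus stood on both sides of 0, and in 1b-/- the 2 libraries had opposite signs.

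Of these abundant genes, Rplp1 and Rplp2 varied the most. They belong to the P-stalk, the flexible arm of the large subunit that recruits translation factors. Rplp1 was at 60.9 and 110 CPM in WT, at 122, 51.4, 76.2 and 187 CPM in 1b+/- and at 61 and 136 CPM in 1b-/-, a 3.64-fold range. Rplp2 was at 15.8 and 22.4 CPM in WT, at 24.9, 16, 20.6 and 43.7 CPM in 1b+/- and at 16.4 and 34.3 CPM in 1b-/-. Both were highest in 1b+/- replicate 4 and 1b-/- replicate 2, the shallowest libraries. Rplp0, the base of the stalk, was at 76.6 and 67.4 CPM in WT, at 123, 78.2, 89.9 and 91.5 CPM in 1b+/- and at 60.2 and 85.6 CPM in 1b-/-, with its peak in another library, 1b+/- replicate 1.

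Rps6, the small subunit protein phosphorylated by S6 kinases after mTORC1 signalling, ran the opposite way. It was at 52.3 and 40 CPM in WT, at 27, 45.8, 41.7 and 27 CPM in 1b+/- and at 50.4 and 26.3 CPM in 1b-/-. The 3 libraries where Rplp1 was highest were the 3 where Rps6 was lowest. Over the 8 libraries, Pearson's r between a gene's deviation and the median deviation of the other 33 was -0.89 for Rps6 and -0.75 for Rps20, and at least 0.8 for 13 genes. Those 13 had a median coding GC content of 56.5% (45.9% to 58.9%), and the 8 genes with r under 0 a median of 48.7% (45.1% to 59.2%). The ranges overlapped. Rps15a had the highest r, 0.97, at a GC content of 45.9%, and Rps19bp1, at 59.2%, had an r of -0.04.

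Genes near the stable end were Rpl23, Rpl37, Rpl7 and Rps26, each with an SD of 0.12 on the log2 scale over the 8 libraries, and Rpl15, Rpl4 and Rpl22 with 0.13. Rps14 (0.43), Rplp2 (0.53) and Rplp1 (0.66) had the widest. Of the genes used as references in quantitative PCR, Rpl13a and Rplp0 had SDs of 0.28 and 0.31. Rpl13a was at 139 and 143 CPM in WT, at 183, 135, 145 and 237 CPM in 1b+/- and at 145 and 180 CPM in 1b-/-, so WT lay within the range of 1b+/-.

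GC content moved with this pattern. Within each library, Spearman's correlation between the coding GC content and the deviation, across 33 of these genes, was 0.52 in 1b+/- replicate 4, 0.49 in 1b+/- replicate 1, 0.28 in 1b-/- replicate 2 and 0.20 in WT replicate 2. It was -0.59 in 1b-/- replicate 1, -0.53 in 1b+/- replicate 2, -0.46 in WT replicate 1 and -0.45 in 1b+/- replicate 3. Across 8978 genes of all kinds with a mean of at least 10 CPM it had the same sign in each of the 8 libraries, from -0.53 in WT replicate 1 to 0.45 in 1b-/- replicate 2. The part of GC content in the deviations was not tested.

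**Figure D5:**
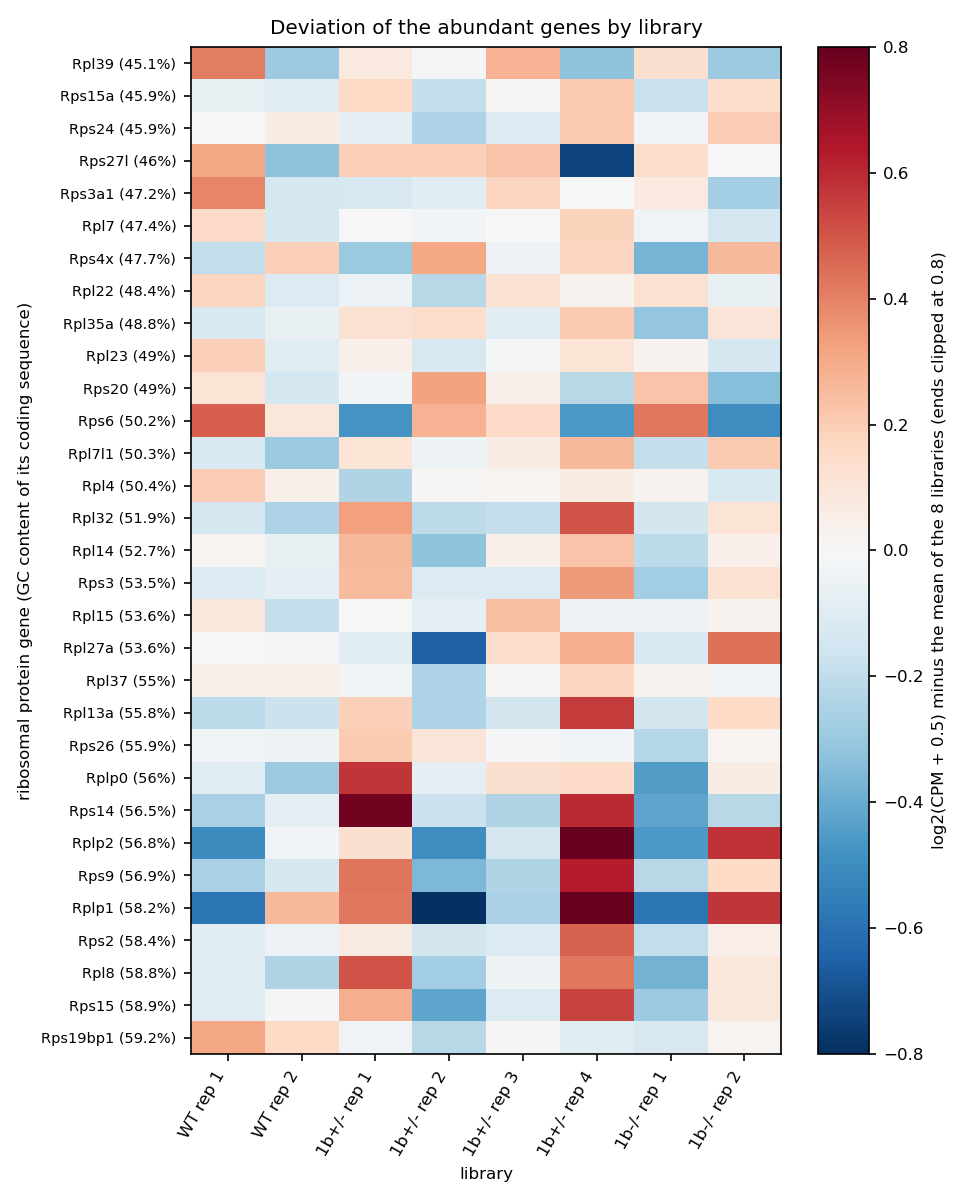
Deviation of log2(CPM + 0.5) from the mean of the 8 libraries (colour) for 31 abundant genes (rows, ordered by the GC content of their coding sequence) in each library (columns). Genes of high GC content such as Rplp1, Rps9 and Rps15 were high in 1b+/- replicates 1 and 4, where Rps6 was low. Rps19bp1, of the highest GC content, was not high there, and Rps15a, of low GC content, was above its mean in both.

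The mitochondrial ribosomal protein genes followed in the same direction, with median deviations (76 genes) of 0.11 in 1b+/- replicate 4, 0.10 in 1b+/- replicate 1, 0.08 in 1b-/- replicate 2, -0.13 in 1b+/- replicate 2 and -0.17 in 1b-/- replicate 1. Over all tested genes the median lay between -0.01 and 0.01 in every library. The summed levels of some tissue markers moved with the pattern. The 10 forebrain markers summed to 2313 CPM (1b+/- replicate 1), 2839 CPM (1b-/- replicate 2) and 3229 CPM (1b+/- replicate 4), the 3 libraries with a median deviation above 0. In the other 5 libraries they summed to between 3568 and 4385 CPM. The 17 hippocampal markers also had their lowest sums in these 3 libraries, at 1717, 2019 and 2344 CPM, against 2531 to 3155 CPM in the others. A sum is carried by its most abundant genes, and Prox1 did not follow it, being highest in 1b-/- replicate 2 (30.8 CPM) and lowest in 1b+/- replicate 2 (11.6 CPM). The 12 choroid plexus markers did not follow the pattern in every library. Their sum was 115 CPM in 1b+/- replicate 2 and reached 1065 CPM in 1b+/- replicate 4, but it was 1053 CPM in WT replicate 1, where Rplp1 was low, and 301 CPM in 1b+/- replicate 1, where it was high. The part of tissue content in the deviations was not tested.

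Other translation genes were compared in the same fits. None of 39 translation factors, 71 ribosome biogenesis genes, 19 TOP mRNAs of other kinds and 76 mitochondrial ribosomal protein genes passed an adjusted p of 0.05 in any of the 3 genotype comparisons by the quasi-likelihood test. At an unadjusted p under 0.05 there was 1 over these lists, Mrps15 in 1b+/- against WT (log2 fold change -0.40, SE 0.15). In 1b+/- against WT the median log2 fold changes were -0.05 for the factors (11 higher, 28 lower), -0.03 for biogenesis (27 higher, 44 lower), 0.00 for the TOP mRNAs and 0.06 for the mitochondrial genes.

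Among these, the largest changes at a mean of at least 10 CPM in 1b+/- against WT were 0.55 (SE 0.26) for Polr1c, a subunit of RNA polymerases I and III, and -0.43 (SE 0.22) for Eif5b, which joins the subunits. In 1b-/- against WT they were 0.46 (SE 0.71) for Tpt1, and -0.44 (SE 0.24) for Polr1d, another subunit of these polymerases. Gnb2l1 was at 195 and 165 CPM in WT, at 291, 174, 207 and 293 CPM in 1b+/- and at 161 and 221 CPM in 1b-/-. Its highest libraries were again 1b+/- replicates 1 and 4, and its log2 fold change in 1b+/- was 0.42 (SE 0.22, adjusted p = 1).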

How the data were processed

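Total RNA of 8 mice was made into stranded poly(A) libraries and read from 1 end over 50 bases. Per the labels, the authors aligned the reads to mm9 with STAR 2.7.2, and featureCounts gave the count of each gene. The deposited values are raw counts per gene symbol, not normalized. Whether strand was used, how multiply matching reads were handled and which annotation was taken are not given in the sources used here. All 8 columns were used.

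Counts were tested with edgeR 4.0.16 (quasi-likelihood fit over all 8 libraries, TMM scaling, a filter of 1 CPM in any library, Benjamini-Hochberg threshold 0.05). The SE was worked back from this test, as the absolute log2 fold change divided by the square root of its F statistic. DESeq2 1.42.0, a likelihood ratio test, other filters and scalings, sex as a covariate and each library left out were alternatives. The tests and the window search were tested on simulated data. Each p-value of this fit rests on a spread between animals that was pooled over all genotypes and moderated across genes. Only 2 of the animals were WT and 2 were 1b-/-. Levels per kb used the GENCODE vM1 exons of mm9, whose chromosome set matches that build. An exact search with numba counted the occurrences of each 50-base window on both strands. It treats a copy that differs at 1 base as no match.

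Genes were named by fixed rules: the 5 highest and 5 lowest per kb among those that passed the filter, every gene that did not pass, the 3 largest changes in each direction at a mean of at least 10 CPM, and listed groups. Some genes that entered the fits and counts are not reported here. Genes of Diamond-Blackfan anaemia, paralogs, translation and markers came from such lists. The members and lists were chosen with earlier results of these data known.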

Additional observations from a re-analysis of the deposited data

Results flagged for a closer look

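In the 4 1b+/- libraries, 33 sets of values were looked at (the CPM of 32 abundant genes and the share of counts in all ribosomal protein genes), and in 3 of them 1 library stood apart, its gap to the nearest other library being above Dixon's critical share of the whole range. Chance flags about 1 in 20. In 2 of the 3 it was 1b+/- replicate 4, the shallowest library. Rps27l, a paralog of Rps27 induced by p53, was at 7.01 CPM there and at 13.8, 13.8 and 14.2 CPM in the others. Rpl7 was at 184 CPM against 159 to 162 CPM. Rpl4 was lowest in 1b+/- replicate 1, at 1054 CPM against 1258 to 1296 CPM.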

How the results depend on the processing

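The count of ribosomal protein genes past the threshold was 0 in every comparison under each alternative run. The median log2 fold change over these genes moved with single libraries. In 1b-/- against WT it ran from -0.07 without 1b-/- replicate 2 to 0.20 without 1b-/- replicate 1, and in 1b-/- against 1b+/- from -0.26 without 1b-/- replicate 2 to -0.02 without 1b-/- replicate 1. In females against males within 1b+/- it ran from -0.09 without 1b+/- replicate 4 to 0.23 without 1b+/- replicate 1. In 1b+/- against WT it stayed between 0.10 and 0.21, and per allele between -0.02 and 0.12. With sex as a covariate the changes of Rplp2 (-0.20) and Rpl13a (-0.05) in 1b-/- against WT and of Rpl27a (-0.03) in 1b-/- against 1b+/- changed sign. The cause was not tested.

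Leaving out 1 library also turned the sign of uncalled genes. Against WT, Rps3a1 ran from -0.41 without WT replicate 2 to 0.14 without WT replicate 1 in 1b+/-, and from -0.47 to 0.08 in 1b-/- without the same libraries. Rplp2 in 1b-/- against WT ran from -0.21 without 1b-/- replicate 2 to 0.86 without 1b-/- replicate 1, and Rps6 from -0.82 without 1b-/- replicate 1 to 0.12 without 1b-/- replicate 2. Rpl27a in 1b-/- against 1b+/- ran from -0.06 without 1b-/- replicate 2 to 0.50 without 1b-/- replicate 1, and Rps6 from -0.44 without 1b-/- replicate 1 to 0.50 without 1b-/- replicate 2. Over all genes, 13 passed in 1b+/- against WT, 11 of them from the list of 17 epithelial markers. The count was 24 with DESeq2, 64 with the likelihood ratio test, 57 with no filter and 0 with sex as a covariate. In 1b-/- against WT it was 1, 13, 23, 33 and 1, and 15 with only those groups fitted. Per allele it was 6, 3, 31, 24 and 0, and 4 with filterByExpr, and in females against males 5, 14, 20 and 85 (the last with no filter). With single libraries left out, the count over all genes ran in 1b+/- against WT from 0 (without WT replicate 1 or without 1b+/- replicate 3) through 4 and 7 (without 1b+/- replicates 4 and 1) to 30 (without WT replicate 2). Against WT, 1b-/- had 16 without WT replicate 2 and 2 without 1b+/- replicate 1. Against 1b+/-, it had 0 without either 1b-/- library, where 1 passed with all libraries. Per allele the count ran from 0 (without WT replicate 1, 1b+/- replicate 4 or 1b-/- replicate 2) through 2 (without 1b+/- replicate 1 or 2), 3 (without 1b+/- replicate 3) and 10 (without 1b-/- replicate 1) to 13 (without WT replicate 2), and in females against males it was 46 without 1b+/- replicate 2. No paired analysis was made because each library came from a different mouse and the labels used here give no pairs. With 2 animals in WT and in 1b-/-, the median SE of the abundant genes was 0.23 in 1b-/- against WT. Changes of that size, and changes several times their SE, could go uncalled. In 1b+/- against WT, Scn1a itself, at -0.90 (SE 0.21), had an adjusted p of 0.381 in the quasi-likelihood test.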
